A study of Mus musculus with 6 samples.

Results

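The genes described here act in G2 and mitosis. They are the A- and B-type cyclins with CDK1, the mitotic kinases, the spindle checkpoint, the kinesins and crosslinkers of the spindle, and proteins of the centromere and of mitotic chromosomes. They were taken by gene symbol from a list of 37 names. Of these, 32 had a probe on the array and all 32 could be tested, out of 10088 genes tested in all. Ccnb1, Cdca3, Plk1, Kif2c and Cenpe were not analysed here.

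RNA came from RAW 264.7 cells, a transformed mouse macrophage line that divides in culture. It was compared on 6 two-colour arrays between cells kept untreated for 8 h and cells given, for the same 8 h, lipopolysaccharide (LPS, from the Gram-negative outer membrane) at 100 ng/ml with LPS-binding protein at 100 pM. Both groups were the same line, and no genetic change is named. The arrays formed 3 numbered sets, each with 1 array that had its treated RNA in Cy5 and 1 with the dyes exchanged. They are called Cy5 arrays and Cy3 arrays below, after the dye of the treated RNA. Nothing in the labels makes the sets separate cultures. The p-values therefore reflect only how far the sets differ, and that spread may be technical. Every value below is a log2 ratio of treated over untreated RNA, or a difference of such ratios. A ratio holds no level, so genes cannot be ranked by abundance, and fewer dividing cells and less RNA per cell cannot be told apart.

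Entry into mitosis is driven by CDK1 bound to A- and B-type cyclins, once CDC25 phosphatases remove the phosphates that WEE1 and MYT1 place on it. The spindle checkpoint then holds the anaphase-promoting complex (APC/C) inactive until every kinetochore is attached, after which CDC20 lets the APC/C mark cyclin B and securin for destruction. Most of these genes are transcribed late in the cycle, through promoter elements bound by the MuvB complex with B-MYB and FOXM1 and by the CCAAT-binding factor NF-Y, and their mRNAs are scarce in cells that do not divide.

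The G2 and mitosis genes were lower in treated cells. By limma, with the 3 set means tested against 0 and a threshold of 0.05 on the adjusted p, 31 of the 32 fell and 0 rose (1 at an unadjusted p under 0.05). Among all genes tested, 16.8% fell and 17.3% rose by the same rule, 34.2% in all. Without set 3 those shares were 9.9% and 11.5%, and 29 of the 30 genes still testable fell. The median log2 ratio of the 32 genes was -0.73, against -0.0077 for all genes tested. The falls ran from 1.27-fold (Bub3) to 2.31-fold (Ccna2), and the adjusted p of the 31 genes was at most 0.00386. Each of the 31 was below 0 on every array on which it was measured, a state that 16.4% of all genes shared. The exception was Aurkb, at 0.12 ± 0.058 (SD, n = 3 sets; adjusted p = 0.115). The direction is a likely one. The table does not name its numerator, Cy5 was taken as the numerator, and the opposite reading would turn every fall into a rise.

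**Figure D1:**
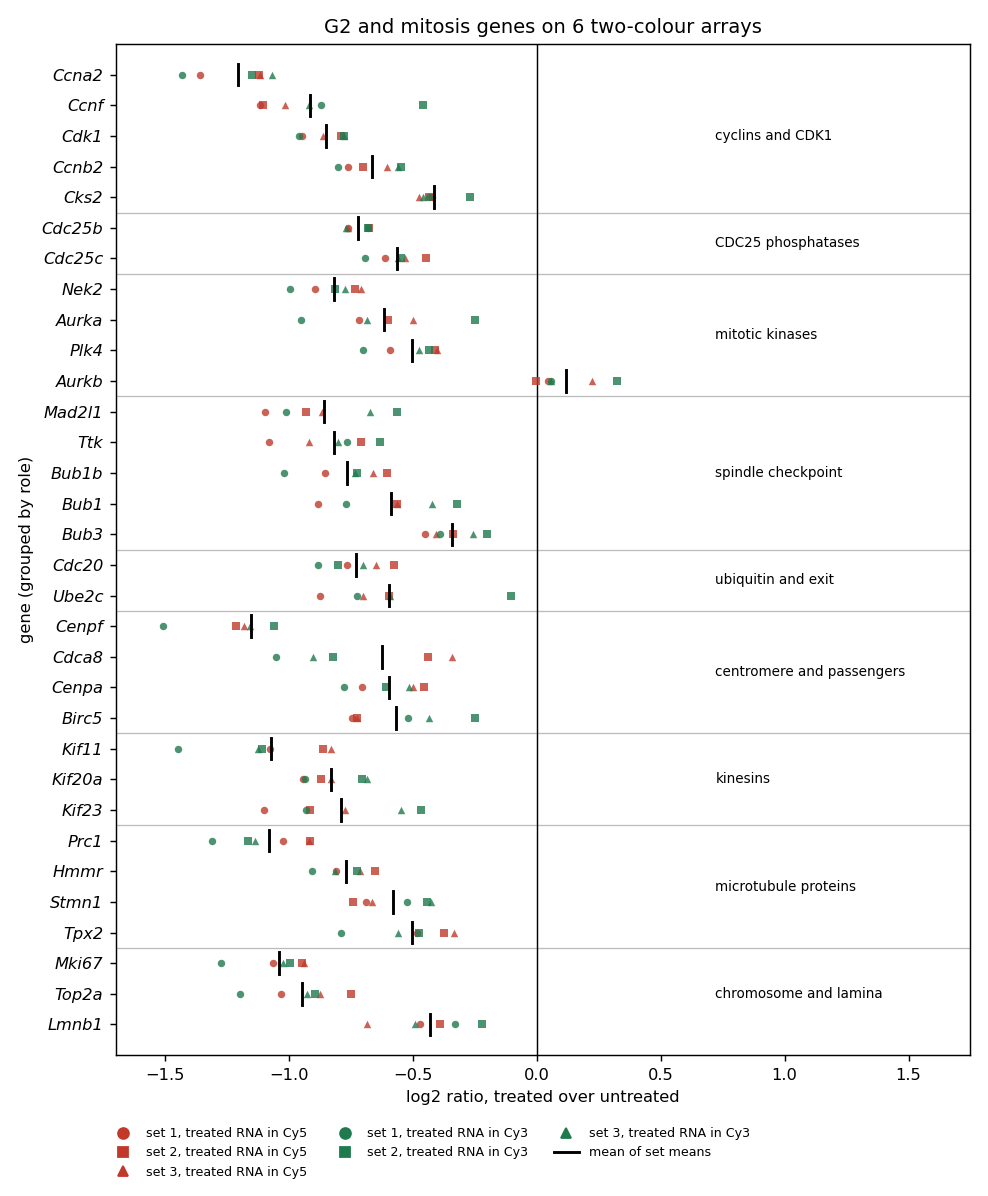
Log2 ratio of treated over untreated RNA (horizontal axis) for the 32 genes tested, grouped by role; colour gives the dye of treated RNA, marker shape the set, and the black bar the mean of the set means. The points of 31 genes lie left of 0, with means from -1.21 (Ccna2) to -0.34 (Bub3), while Aurkb lies at 0.12.

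Among the cyclins and their kinase, all 5 tested genes fell. Ccna2, whose product cyclin A2 serves in S phase and G2, stood at -1.36, -1.12 and -1.12 on the Cy5 arrays and -1.43, -1.15 and -1.07 on the Cy3 arrays, in sets 1, 2 and 3 in that order, here and for every gene below. Its mean was -1.21 ± 0.16 (SD, n = 3 sets), or 2.31-fold lower, with a 95% interval of -1.38 to -1.04. Both arrays of set 1 were the lowest, and the other 4 lay close together. Cdk1, the kinase itself, stood at -0.95, -0.79 and -0.86 on the Cy5 arrays and -0.96, -0.78 and -0.78 on the Cy3 arrays, a mean of -0.85 ± 0.09. Its 6 values spanned less than those of Ccna2, and both orientations covered the same range. Ccnb2, which encodes cyclin B2, stood at -0.76, -0.70 and -0.61 on the Cy5 arrays and -0.80, -0.55 and -0.56 on the Cy3 arrays, a mean of -0.66 ± 0.11. Ccnf encodes cyclin F, an F-box protein that marks substrates for ubiquitination, and stood at -1.12, -1.10 and -1.02 on the Cy5 arrays and -0.87, -0.46 and -0.92 on the Cy3 arrays. The Cy3 array of set 2 was set apart from the other 5, and the mean was -0.92 ± 0.12. On that array the probes of Ccnf disagreed, at -0.045 and -0.87. Cks2, a small subunit that binds CDKs, fell least in this group, at -0.42 with values from -0.48 to -0.27. The intervals of Ccna2 and Cks2 (-0.53 to -0.30), picked as the extremes of this group, did not overlap, and their difference was not tested.

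The phosphatases that switch CDK1 on were also lower. Cdc25b stood at -0.76, -0.68 and -0.76 on the Cy5 arrays and -0.68, -0.68 and -0.77 on the Cy3 arrays, a mean of -0.72 ± 0.044. The even values are means over probes with opposite dye patterns. One probe ran from -0.56 to -0.49 on the Cy5 arrays and from -0.92 to -0.75 on the Cy3 arrays, the other from -1.04 to -0.79 and from -0.63 to -0.58. Cdc25c stood at -0.61, -0.45 and -0.53 on the Cy5 arrays and -0.69, -0.55 and -0.56 on the Cy3 arrays, a mean of -0.57 ± 0.079. A second Cdc25c probe, left out because of a value of exactly 0, averaged -0.14 on its 5 measured arrays. The kinase genes that oppose them fell too, Wee1 by 0.88 and Pkmyt1 by 0.65 on the log2 scale (Pkmyt1 was picked after its value was seen). Another Pkmyt1 probe, left out because of a value of exactly 0, averaged 0.081 on its 5 measured arrays. It ran from -1.26 to -0.85 on the Cy5 arrays and from 0.52 to 1.45 on the Cy3 arrays. Cdc25a, which acts mainly at the start of S phase, had a log2 ratio of -0.083 ± 0.16 (adjusted p = 0.402), with values from -0.26 to 0.11. Its arrays therefore lay on both sides of 0, and above every array of Cdc25b and Cdc25c.

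Of the 4 mitotic kinases tested, Nek2, Aurka and Plk4 fell. Nek2, which parts the centrosomes before mitosis, stood at -0.89, -0.73 and -0.71 on the Cy5 arrays and -0.998, -0.81 and -0.77 on the Cy3 arrays, a mean of -0.82 ± 0.11. This rests on 1 of its probes. The other had 3 values of exactly 0, and with zeros kept and both probes averaged the ratio of Nek2 was -0.19 (limma's adjusted p = 0.424). Plk4, which starts centriole duplication, stood at -0.60, -0.41 and -0.40 on the Cy5 arrays and -0.70, -0.44 and -0.48 on the Cy3 arrays, a mean of -0.50 ± 0.13, and its pair of probes lay at -0.51 and -0.49.

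The Aurora kinases parted. Aurka, which acts at centrosomes and spindle poles, stood at -0.72, -0.60 and -0.50 on the Cy5 arrays and -0.95, -0.25 and -0.69 on the Cy3 arrays, a mean of -0.62 ± 0.21. Its spread was among the widest, and on the Cy3 arrays alone its adjusted p was 0.0516. Aurkb, the kinase of the chromosomal passenger complex, stood at 0.043, -0.0052 and 0.22 on the Cy5 arrays and 0.057, 0.32 and 0.058 on the Cy3 arrays, a mean of 0.12 ± 0.058 with a 95% interval of 5.8e-05 to 0.23. Both Aurkb probes, which carry the same accession, averaged 0.077 and 0.16. On all 6 arrays Aurkb lay above Aurka, by 0.57 to 1.01, and the difference of the set means was 0.73 ± 0.15 (SD, n = 3 sets). This pair was singled out after its values were seen. The ranges of the Aurora genes, as means over probes, did not overlap, but those of single probes did. An Aurka probe stood at 0.23 on the Cy3 array of set 2, and an Aurkb probe at -0.15 on the Cy5 array of set 2.

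Other subunits of the complex that holds AURKB were lower. Cdca8, which encodes borealin, was not measured on the Cy5 array of set 1, and the others stood at -0.44 and -0.34 on the Cy5 arrays and -1.05, -0.82 and -0.90 on the Cy3 arrays. The Cy3 arrays were the lower ones, and limma's fit used the mean of sets 2 and 3, -0.63. Birc5, which encodes survivin, stood at -0.75, -0.73 and -0.73 on the Cy5 arrays and -0.52, -0.25 and -0.44 on the Cy3 arrays, a mean of -0.57 ± 0.073, and here the Cy5 arrays were the lower ones. Its probes differed, at -0.87 and -0.26. Incenp, the scaffold of the complex, came from the list of other kinetochore genes and was picked after its value was seen. It stood at -0.76 ± 0.057, a mean over probes with opposite dye patterns. One Incenp probe ran from -1.21 to -1.05 on the Cy5 arrays and from -0.50 to 0.11 on the Cy3 arrays. The other ran from -0.73 to -0.67 and from -1.02 to -0.94. So the 3 partners of AURKB that were measured fell, while Aurkb itself did not pass the test.

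Centromere genes fell as well. Cenpf, a large outer kinetochore protein of G2 and M phase, was not measured on the Cy5 array of set 1 either, and the others stood at -1.22 and -1.18 on the Cy5 arrays and -1.51, -1.06 and -1.16 on the Cy3 arrays. It was among the lowest of the genes, at -1.15 over sets 2 and 3, or 2.23-fold lower. Cenpa, the histone H3 variant that marks centromeres, stood at -0.71, -0.46 and -0.50 on the Cy5 arrays and -0.78, -0.61 and -0.52 on the Cy3 arrays, a mean of -0.60 ± 0.13.

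All 5 spindle checkpoint genes fell, over a wide range of sizes. Mad2l1, which encodes MAD2, stood at -1.10, -0.93 and -0.87 on the Cy5 arrays and -1.01, -0.57 and -0.68 on the Cy3 arrays, a mean of -0.86 ± 0.17. Ttk, the kinase MPS1 that starts checkpoint signalling at kinetochores, stood at -1.08, -0.71 and -0.92 on the Cy5 arrays and -0.77, -0.64 and -0.80 on the Cy3 arrays, a mean of -0.82 ± 0.13. Both had their lowest value on an array of set 1. Bub1b, which encodes BUBR1, averaged -0.77 ± 0.15, and the kinase gene Bub1 -0.59 ± 0.21. Bub3 carries both proteins to the kinetochore, and stood at -0.45, -0.34 and -0.41 on the Cy5 arrays and -0.39, -0.20 and -0.26 on the Cy3 arrays. Its mean of -0.34 ± 0.075 was the smallest of the 31 falls, and its highest single array lay below 0. The interval of Bub3 (-0.46 to -0.22) did not overlap that of Mad2l1 (-1.04 to -0.68). This pair was picked as the extremes of the group, and its difference was not tested.

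The genes that carry the checkpoint's outcome were lower. Cdc20, the activator of the APC/C that the checkpoint restrains, stood at -0.77, -0.58 and -0.65 on the Cy5 arrays and -0.88, -0.80 and -0.70 on the Cy3 arrays, a mean of -0.73 ± 0.083. Ube2c, the ubiquitin-conjugating enzyme that works with the APC/C, stood at -0.88, -0.60 and -0.70 on the Cy5 arrays and -0.72, -0.11 and -0.59 on the Cy3 arrays, a mean of -0.60 ± 0.23. One array, the Cy3 array of set 2, stood near 0 and apart from the rest, and on the Cy3 arrays alone the adjusted p was 0.0804.

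Motor proteins of the spindle fell together. Kif11, the tetrameric kinesin that pushes the poles apart, stood at -1.08, -0.86 and -0.83 on the Cy5 arrays and -1.45, -1.11 and -1.13 on the Cy3 arrays, a mean of -1.08 ± 0.16 or 2.11-fold lower. Its Cy3 arrays were the lower ones. Kif20a and Kif23, kinesins of the central spindle that serve cytokinesis, averaged -0.83 ± 0.097 and -0.79 ± 0.20. Kif23 ranged from -1.10 to -0.47.

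The microtubule proteins had larger and smaller falls. Prc1, which crosslinks antiparallel microtubules and holds the central spindle together, stood at -1.02, -0.92 and -0.92 on the Cy5 arrays and -1.31, -1.17 and -1.14 on the Cy3 arrays. Its mean was -1.08 ± 0.077, 2.11-fold lower, with the smallest adjusted p of the 31 (limma, 4.5e-05). Hmmr, a spindle pole protein, averaged -0.77 ± 0.085 over a pair of probes that differed, at -1.11 and -0.43. Stmn1, which destabilises microtubules, stood at -0.69, -0.74 and -0.66 on the Cy5 arrays and -0.53, -0.45 and -0.43 on the Cy3 arrays, a mean of -0.58 ± 0.032. Tpx2, which activates AURKA on the spindle, stood at -0.50 ± 0.12, with values from -0.79 to -0.33.

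On the chromosomes, Mki67 and Top2a fell by about 2-fold. Mki67, the gene of the proliferation antigen Ki-67, stood at -1.06, -0.95 and -0.94 on the Cy5 arrays and -1.28, -0.998 and -1.03 on the Cy3 arrays, a mean of -1.04 ± 0.11 or 2.06-fold lower. Top2a, the topoisomerase that untangles sister chromatids, stood at -1.03, -0.75 and -0.88 on the Cy5 arrays and -1.20, -0.90 and -0.93 on the Cy3 arrays, a mean of -0.95 ± 0.15 or 1.93-fold lower. For both, the Cy3 array of set 1 was the lowest. Lmnb1, which encodes the nuclear lamina protein lamin B1, fell by less, with a mean of -0.43 ± 0.14 and set 3 the lowest of its sets. Its probes differed in this, at -0.81 and -0.56 on the Cy5 array of set 3 and -0.74 and -0.24 on the Cy3 array. The probe with the smaller falls there was lower in set 2 on the Cy5 arrays (-0.60) and in set 1 on the Cy3 arrays (-0.36).

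In a stricter test, against a change of 1.5-fold rather than 0, 8 of the 32 genes passed as lower, against 0.833% of all genes. They were Ccna2, Ccnf, Cdk1, Cenpf, Kif11, Prc1, Mki67 and Top2a. More than 2-fold lower were 5 genes, Ccna2, Cenpf, Prc1, Kif11 and Mki67, against 0.466% of all genes.

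The genes varied together across the sets. Of the 30 genes with 3 set means, 27 (90%) had their lowest value in set 1, 0 in set 2 and 3 in set 3. Set 1 was the lowest in 41.2% of all genes that fell and in 38.2% of all genes with 3 sets. The pattern was not confined to these genes. In the other mitosis lists described below, set 1 was also the lowest for Wee1, Melk, Ska1, Sgo1, Aspm, Psrc1, Smc4 and Ncapg. It was not the lowest for Mybl2, Chek2, Nuf2 or Fam83d, and the share in those lists was not counted. The median of the 32 genes was -0.83 in set 1 and -0.67 in each of the other sets, while the median of all genes that fell was -0.33 in set 1, -0.32 in set 2 and -0.34 in set 3. What sets 1, 2 and 3 stand for is not given in the labels, and its part in the larger falls was not tested. Without set 1 the same test called 31 of the 32 genes lower, with a median of -0.68. The dye orientations gave like medians over the 32 genes, -0.73 for the Cy5 arrays and -0.72 for the Cy3 arrays. A limma test of the difference between orientations called 0 of the 32 genes (8 at an unadjusted p under 0.05, or 25%) and 0 of 10088 genes (26.3% at an unadjusted p under 0.05).

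For 15 of the genes, 2 probes were measured on all 6 arrays. The probe means of a gene differed by 0.078 at the median, and by less than 0.2 for 12 genes. The pairs that differed by more than 0.4 were those of Birc5 and Hmmr, and all of their probes averaged below 0. The probes of Bub3 agreed to within 0.00035, and those of Cdk1 averaged -0.84 and -0.87. Close means did not exclude differences on single arrays. The probes of Aurka stood at -0.72 and 0.23 on the Cy3 array of set 2. Those of Ttk stood at -1.11 and -0.42 on the Cy3 array of set 1.

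The promoters of these genes held 2 short elements more often than other promoters. RefSeq promoter windows (assembly GRCm38.p6, 250 bases before to 50 after an annotated start) were matched by symbol for 25 of the 32 genes. These made 27 windows, because Prc1 and Bub3 have overlapping pairs. No window was matched for Ccna2, Cdc25c, Aurkb, Kif20a, Tpx2, Stmn1 or Lmnb1. Aurkb, which did not pass the test, was thus not searched, and all 25 genes searched had fallen. The cell cycle genes homology region (CHR), an element bound by MuvB, was searched as TTTGAA or TTCGAA, and the NF-Y box as CCAAT, each on both strands. At least 1 CHR was found in 22 of 27 windows (81.5%), against 19.2% of all 32851 windows. An NF-Y box was found in 24 of 27 (88.9%), against 37.4% of all windows, and 2 or more of them in 18 (66.7%), against 11.7%. Windows of S-phase genes held at least 1 box in 55.6% of cases and 2 or more in 31.5%. Both elements were present in 22 windows (81.5%), against 7.52% of all windows and 9.26% of those of S-phase genes. A site of the E2F type with the letters TTCCCGC, the letters TTGGCGC or the letters TTCGCGC (both strands), the element of S-phase promoters, was found in 4 windows (14.8%), against 8.07% of all windows, 11.7% of windows of genes tested and 55.6% of 54 windows of S-phase genes. A match is a description of the letters and not evidence that a factor binds.

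Counted from the annotated start, with bases before it negative, the median position of a CHR was -18.5 and that of an NF-Y box -69.5. In 15 of 27 windows (55.6%) a CHR began 20 to 50 bases downstream of the nearest box that preceded it, against 1.22% of all windows and 1.85% of windows of S-phase genes. A box that follows the CHR was not considered, and one lies nearer in Cdc20, Cdca8 and Bub3 and, for 1 such CHR, in Top2a. This spacing was chosen after the matches were seen. The first 6 promoters below belong to genes with large falls or central roles. Those of Cdk1, Cdc20, Top2a and Kif11 hold a CHR at such a spacing within the printed stretch. In Ccnb2 the printed CHR lies upstream of its boxes, and Ccnf holds both elements outside that spacing. Mad2l1 is given as a promoter that held neither element, and the gene fell by 0.86 on the log2 scale. Each stretch is the 200 bases before the start on the gene's strand, 5′ to 3′, with CHR and NF-Y boxes in capitals (ATTGG and TTCAAA are their reverse complements). Their places are chr10:69352913-69353112 (minus strand) for Cdk1, chr17:24251410-24251609 (minus strand) for Ccnf, chr9:70421555-70421754 (minus strand) for Ccnb2, chr4:118437344-118437543 (minus strand) for Cdc20, chr11:99024190-99024389 (minus strand) for Top2a, chr19:37376182-37376381 (plus strand) for Kif11 and chr6:66535021-66535220 (plus strand) for Mad2l1.
Cdk1: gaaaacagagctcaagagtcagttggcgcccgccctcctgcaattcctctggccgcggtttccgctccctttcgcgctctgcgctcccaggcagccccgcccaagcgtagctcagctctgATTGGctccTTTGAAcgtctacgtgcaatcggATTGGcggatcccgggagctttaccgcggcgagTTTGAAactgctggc
Ccnf: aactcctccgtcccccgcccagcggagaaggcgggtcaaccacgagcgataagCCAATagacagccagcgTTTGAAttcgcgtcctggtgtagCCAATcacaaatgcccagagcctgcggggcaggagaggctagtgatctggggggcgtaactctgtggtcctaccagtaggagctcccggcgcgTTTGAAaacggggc
Ccnb2: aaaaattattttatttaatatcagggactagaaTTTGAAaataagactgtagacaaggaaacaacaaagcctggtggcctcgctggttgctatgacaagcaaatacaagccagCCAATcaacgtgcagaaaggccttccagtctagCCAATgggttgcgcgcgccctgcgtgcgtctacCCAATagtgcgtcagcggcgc
Cdc20: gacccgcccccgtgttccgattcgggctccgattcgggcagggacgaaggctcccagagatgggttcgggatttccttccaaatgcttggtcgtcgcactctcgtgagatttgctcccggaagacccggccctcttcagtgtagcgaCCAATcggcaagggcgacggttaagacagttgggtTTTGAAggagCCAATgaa
Top2a: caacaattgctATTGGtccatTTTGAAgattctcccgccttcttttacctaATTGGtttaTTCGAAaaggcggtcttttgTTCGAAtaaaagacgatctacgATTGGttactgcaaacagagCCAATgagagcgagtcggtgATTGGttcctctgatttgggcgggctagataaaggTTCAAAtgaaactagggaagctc
Kif11: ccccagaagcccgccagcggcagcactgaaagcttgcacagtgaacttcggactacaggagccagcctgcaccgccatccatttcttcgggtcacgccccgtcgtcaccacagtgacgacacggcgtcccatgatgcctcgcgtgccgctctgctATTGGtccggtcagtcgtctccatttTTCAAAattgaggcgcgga
Mad2l1: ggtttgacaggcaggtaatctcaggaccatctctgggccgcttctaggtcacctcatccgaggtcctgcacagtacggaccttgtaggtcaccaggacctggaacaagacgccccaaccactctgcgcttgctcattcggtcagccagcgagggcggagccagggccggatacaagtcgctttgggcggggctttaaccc

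Within these stretches, Cdk1 has a CHR at position -15 and Cdc20 one at -18. Ccnb2 has NF-Y boxes that begin at -87, -54 and -21, and a further CHR lies just past the start, outside the printed part. Top2a has 4 CHR and 5 NF-Y boxes in the printed stretch. The 20 genes with a CHR had a median log2 ratio of -0.77, and the 5 without one (Nek2, Mad2l1, Birc5, Plk4 and Cks2) had one of -0.57. The ranges overlapped, since Mad2l1 and Nek2 fell more than Bub3, which has a CHR.

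**Figure D2:**
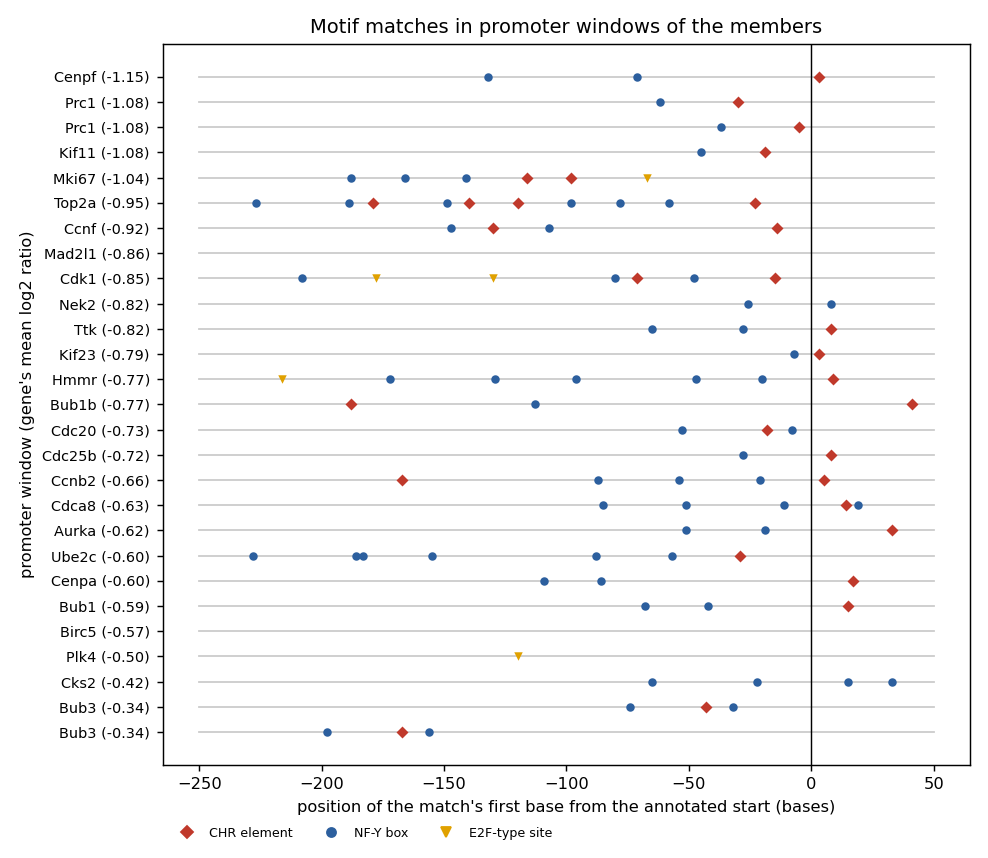
Positions of matches in the 27 promoter windows of members tested, from 250 bases before to 50 after the annotated start (horizontal axis), ordered by the gene's mean log2 ratio, given in brackets. Red diamonds are CHR elements, blue dots NF-Y boxes and yellow triangles E2F-type sites; 30 CHR and 60 NF-Y boxes are shown, with those in overlapping windows of Prc1 and Bub3 drawn in each, and 3 windows (Mad2l1, Birc5 and Plk4) hold neither.

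Genes of factors known to act on such promoters did not all move alike. Foxm1, the transcription factor of late cell cycle genes, stood at -0.90, -0.52 and -0.82 on the Cy5 arrays and -0.92, -1.04 and -0.98 on the Cy3 arrays, a mean of -0.86 ± 0.073. Mybl2, which encodes B-MYB, stood at -0.68, -0.87 and -0.76 on the Cy5 arrays and -0.94, -0.95 and -0.81 on the Cy3 arrays, a mean of -0.84 ± 0.066. Every array of both genes lay below 0. The NF-Y genes Nfya and Nfyb fell by less, at -0.19 ± 0.087 and -0.30 ± 0.15, each with 5 of 6 arrays below 0. The NF-Y gene Nfyc (0.077 ± 0.056, limma's adjusted p = 0.264) and the MuvB gene Lin37 (0.036 ± 0.095, limma's adjusted p = 0.652) did not pass. These last 4 were picked after their values were seen. In the list of G2/M regulators 17 of 23 genes fell (73.9%), against 16.8% of all genes. Rises numbered 0 (1 at an unadjusted p under 0.05), against 17.3% of all genes, and the median of the list was -0.49. The largest falls were those of Melk (-0.90 ± 0.077), the checkpoint kinase gene Chek2 (-0.88 ± 0.076) and Wee1 (-0.88 ± 0.16). Cks1b, the sister gene of Cks2, stood at -0.49 ± 0.13.

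Other kinetochore genes had 21 falls and 1 rise among 29 (72.4% and 3.45%, against 16.8% and 17.3% of all genes). Their median was -0.55. Sgo1, which protects centromeric cohesion, stood at -1.17 ± 0.11, Ska1 at -1.01 ± 0.13 and the NDC80 complex gene Nuf2 at -1.003 ± 0.051. Mad2l2, which serves mainly in DNA repair, had the rise, at 0.20 ± 0.097 (adjusted p = 0.0317). Its adjusted p was 0.0872 without set 1 and 0.108 without set 3. Among 30 other spindle and cytokinesis genes 22 fell and 2 rose, at a median of -0.60. Aspm, a spindle pole protein, stood at -1.29 ± 0.25, Psrc1 at -1.23 ± 0.17 and Fam83d at -1.11 ± 0.11. Sass6, the gene of the centriole cartwheel protein, rose, at 1.21, 1.11 and 1.05 on the Cy5 arrays and 1.19, 1.28 and 1.05 on the Cy3 arrays. With a mean of 1.15 ± 0.087 it stood opposite to Plk4, the kinase that starts the same step, and their arrays did not overlap. Mapre1, a microtubule end protein, had the second rise, at 0.16 ± 0.034 (adjusted p = 0.0351, 0.0692 without set 1 and 0.241 without set 3).

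Condensin and cohesin genes fell in 6 of 10 cases and rose in 1, at a median of -0.29. Esco2, which acetylates cohesin in S phase, stood at -1.45 ± 0.21, and the condensin genes Smc4 and Ncapg at -0.77 ± 0.091 and -0.67 ± 0.091. The cohesin gene Stag2 rose, at 0.26 ± 0.11 (limma's adjusted p = 0.0163, and 0.0635 without set 3). In the APC/C list 3 of 12 genes fell (25%) and 2 rose (16.7%), at a median of -0.13, near the 16.8% and 17.3% of all genes. Fbxo5, the gene of the APC/C inhibitor EMI1, stood at -1.31, -1.39 and -1.11 on the Cy5 arrays and -1.41, -1.33 and -1.17 on the Cy3 arrays, a mean of -1.29 ± 0.13. Fzr1, which encodes the activator CDH1, stood at -0.46 ± 0.077, and the subunit genes Anapc11, Anapc10 and Cdc26 at -0.25, 0.18 and 0.36. The adjusted p of Anapc10 was 0.0359, 0.0812 without set 2 and 0.207 without set 3. Pttg1, which encodes securin, the substrate whose loss frees separase, had a log2 ratio of -0.028 ± 0.24 (adjusted p = 0.85, picked after its value was seen). The activator Cdc20 and the enzyme Ube2c thus fell by more than any APC/C subunit measured.

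**Figure D3:**
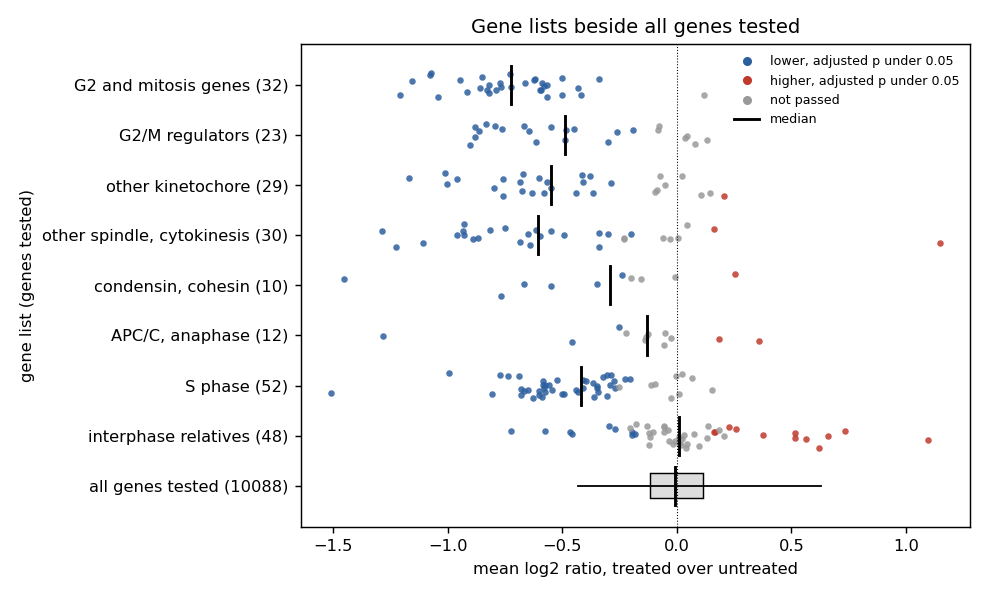
Mean log2 ratio of treated over untreated RNA (horizontal axis) for each gene of 8 lists, with the number tested in brackets; blue points fell, red points rose, grey points did not pass, and black bars are medians. The bottom row shows all 10088 genes tested as a box from the 25th to the 75th percentile with whiskers from the 5th to the 95th; the median of the G2 and mitosis genes is -0.73 and that of all genes -0.0077.

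Genes of S phase were lower as well. Of 52 tested, 43 fell (82.7%), against 16.8% of all genes. Rises numbered 0 (1 at an unadjusted p under 0.05), against 17.3% of all genes, and the median of the list was -0.42. In this list 23 of 52 genes lay below -0.5, against 28 of the 32 G2 and mitosis genes. Of all 10088 genes tested, 343 passed as lower with a ratio between -1 and -0.5, and 47 with a ratio below -1. The largest falls were those of Tk1 (-1.51 ± 0.082), Gmnn (-0.997 ± 0.076), which encodes the replication inhibitor geminin, and Rrm2 (-0.81 ± 0.15). The difference between these lists was not tested.

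Relatives from the same gene families, listed for roles outside mitosis, moved in both directions, though not all of them lack a role in it. Of 48 such genes 9 fell and 12 rose, or 18.8% and 25%, against 16.8% and 17.3% of all genes, and their median was 0.0075. Plk2 and Plk3, stress-responsive Polo-like kinases, rose by 1.10 ± 0.12 and 0.73 ± 0.14, while Plk4 fell. The probes of Plk2 averaged 0.47 and 1.72. Top2b, a topoisomerase found also in cells that do not divide, stood at -0.54, -0.52 and -0.49 on the Cy5 arrays and -0.23, 0.084 and -0.08 on the Cy3 arrays. Its mean was -0.30 ± 0.085, and each array of Top2a lay below all of Top2b. On the Cy3 arrays alone the adjusted p of Top2b was 0.546. Among lamins, Lmnb2 stood at -0.72 ± 0.088, lower than Lmnb1, and Lmna at -0.057 ± 0.16 (adjusted p = 0.581), with arrays from -0.58 to 0.47. Nek6 (-0.58 ± 0.094), a kinase that also acts in mitosis (-0.062 and an adjusted p of 0.801 with zeros kept), and Kif21a (-0.47 ± 0.13) were among the falls, and the transport kinesin gene Kif17 (0.66 ± 0.11) among the rises.

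**Figure D4:**
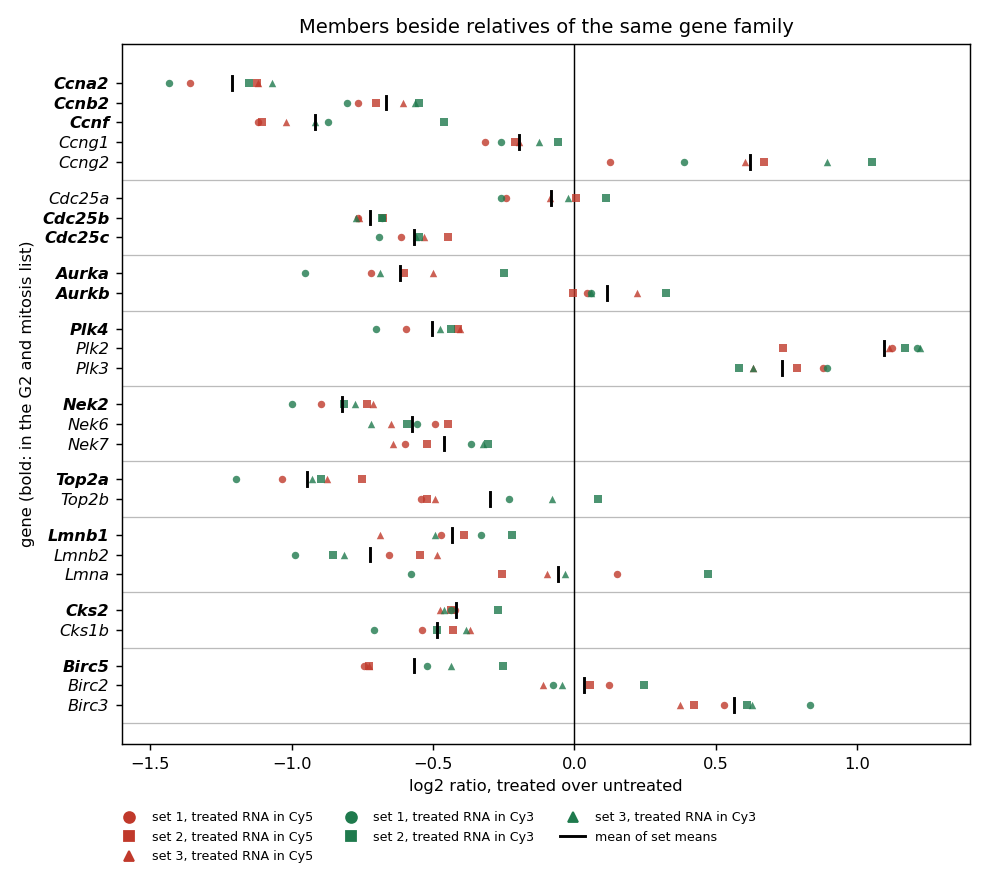
Log2 ratio of treated over untreated RNA (horizontal axis) for genes of the G2 and mitosis list (bold) and relatives in 9 families; colour gives the dye of treated RNA, marker shape the set, and black bars the mean of the set means. Plk2 and Plk3 lie right of 0 and Plk4 left of it, Top2a lies left of Top2b, and Aurkb lies right of Aurka. The relatives drawn beyond those named in the text were chosen after their values were seen.

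Across the arrays as deposited, 1328 to 2262 of 16281 features (8.16% to 13.9%) were listed at exactly 0 and treated as not measured. Of the 51 probes of these genes 6 held a 0 and 47 were used. Before any sign was changed, Pearson's r over features lay between -0.77 and -0.40 for a Cy5 array against a Cy3 array, and between 0.65 and 0.86 within a dye orientation. Features are not independent replicates in these correlations. Ratios do not show which cell types were present. Of 10 macrophage markers 8 were tested, 5 rose and 1 fell, with log2 ratios from -0.19 to 2.11. Of 22 tested markers of lymphocytes, granulocytes, dendritic and mast cells, fibroblasts, epithelium and endothelium, 0 passed limma's test (1 at an unadjusted p under 0.05), with log2 ratios from -0.13 to 0.24.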

How the data were processed

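RNA of treated and untreated RAW 264.7 cells was compared on 6 two-colour arrays. The authors deposited a log2 ratio for each feature of each array, and its base was read from the largest value, 6.643856, the log2 of 100. How the images were scanned, corrected for background and normalized is not given in the sources used here. Cy5 was taken as the numerator, because the labels use control for the Cy3 and test for the Cy5 channel. Their sign was turned on the 3 Cy3 arrays. No channel intensities were used, so no filter on dim features was possible, and the number of arrays limits the precision.

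Features were named by the platform annotation. Of 16281, 13738 had 1 gene symbol (13694 matched to RefSeq, GRCm38.p6), 52 had several and 2491 had none. Values of exactly 0 were treated as not measured. A gene's value was the mean of its probes measured on all 6 arrays or, where it had none, its most complete probe, with 2 sets needed. Both arrays of a set were averaged, and the set means of 10088 genes were tested against 0 (limma 3.58.1, R 4.3.3, lmFit and eBayes, Benjamini-Hochberg adjustment over all genes, threshold 0.05). SDs are over set means. As deposited, before any sign was changed, same-numbered arrays deviated together (r of 0.31, 0.24 and 0.18 over features). For all 6, the closest of the 3 arrays in the other dye orientation was the one of the same number. As ratios of treated over untreated RNA, these deviations run in opposite directions. They therefore do not show a shared response to treatment within a set. Since the set means already pair same-numbered arrays, the set as a block is an alternative.

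Named genes were all members and, from each other list, the 3 largest rises and falls that passed, with Foxm1, Mybl2, Cdc25a, Cks1b, Top2b, Lmna, Lmnb2, Plk2 and Plk3. The members and lists were chosen with earlier results of these data known. On simulated set means of treated over untreated for 10088 genes, 12% of genes changed by 0.25 on the log2 scale were called, 88% at 0.5 and 100% at 1 and 2, with 10 false calls. Only 50 genes were changed at each size, a smaller share than the 34.2% called in the data. These rates therefore need not hold for the data.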

Additional observations from a re-analysis of the deposited data

Results flagged for a closer look

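A single array stood apart from the other 5 for 4 of the 32 genes by Dixon's ratio at the 95% level, which chance alone passes in about 1 of 20 groups. The Cy3 array of set 2 was the high one for Ccnf (-0.46), Ube2c (-0.106) and Cks2 (-0.27). For Ccnf that value is the mean of probes at -0.045 and -0.87. The Cy3 array of set 1 was the low one for Mki67 (-1.28). A probe of Nek2 that was left out followed the dye and not the treatment. It had a log2 ratio of -2.42 on its 1 measured Cy5 array and a mean of 2.56 on 2 Cy3 arrays, and was listed at exactly 0 on the other 3. That difference was not tested.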

How the results depend on the processing

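Between 29 and 31 of the 32 genes fell under every alternative other than the test against a 1.5-fold change, which called 8. With zeros kept as values 30 fell, with Nek2 lost. On the Cy3 arrays alone 29 fell, with Aurka and Ube2c lost. Testing only genes measured on all 6 arrays left 30, of which 29 fell. Leaving out a set gave 29 to 31, since Cdca8 and Cenpf could not be tested without set 2 or set 3. With the set number as a replicate block 31 fell, and the block changed no call among the 32. In the 5 other mitosis lists together 69 of 104 genes fell, with the block too, 16 in the test against 1.5-fold and 61 to 70 without a set. For other mitosis lists higher calls numbered 6, against 1 in the test against 1.5-fold and 2 to 6 without a set. For all genes lower calls numbered 1698, against 84 in the test against 1.5-fold and 945 to 1717 without a set. For all genes higher calls numbered 1750, against 342 and 1097 to 1683. The fewest came without set 3 in each case. Cdc25a and Lmna, which had not passed, changed sign without set 1, to 0.00063 and 0.022, and ranged down to -0.15 and -0.14 without another set.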

Other observations

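Genes outside the G2 and mitosis list whose promoter window held both a CHR and an NF-Y box moved in both directions. Of 578 such genes tested, 134 (23.2%) fell and 97 (16.8%) rose, at a median log2 ratio of -0.024. Of all 8002 genes outside the list that had a window, 17.4% fell and 17.4% rose, at a median of -0.0096. With the genes of every other list left out too, 112 of 549 (20.4%) fell, against 16.5% of 7808. A CHR, with or without an NF-Y box, was found in 1437 genes outside the list, of which 273 (19.0%) fell.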
